A study of Mus musculus with 16 samples.

Results

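The 10 genes described here bring pyruvate into mitochondria and set what happens to it there, and they were taken by symbol from a table of read counts for 56941 genes. They are the pyruvate dehydrogenase kinases Pdk1, Pdk2, Pdk3 and Pdk4, the pyruvate dehydrogenase phosphatases Pdp1 and Pdp2, the mitochondrial pyruvate carrier subunits Mpc1 and Mpc2, Pdha1, and the pyruvate carboxylase gene Pcx. All 10 passed the filter on low counts, as did 16306 genes in all. Bulk RNA sequencing was run on murine gingival fibroblasts (mGF), connective tissue cells of the gum, grown from WT C57Bl6 mice of 3 to 6 months and used at passages 2 to 8. There were 4 libraries in each of 4 conditions, all kept for 24 h: BSA (control), 1 ng/mL of the cytokine IL-1β, 200 µM of the saturated fatty acid palmitate bound to BSA, and palmitate + IL-1β. The labels do not say whether cells given IL-1β alone also received BSA. For the sequencing, the study mentions BSA both without and with IL-1β, which does not settle it. For other assays on these treatments it describes IL-1β as added over either vehicle or palmitate. The labels also do not say whether the 4 libraries of a condition came from separate cultures or animals, so p-values measure the spread between these libraries only, which may be technical.

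Pyruvate made by glycolysis enters the mitochondrial matrix through a carrier built of the Mpc1 and Mpc2 proteins. There the pyruvate dehydrogenase complex turns it into acetyl-CoA, while pyruvate carboxylase turns it into oxaloacetate, which refills the tricarboxylic acid (TCA) cycle. The kinases phosphorylate the Pdha1 protein and switch the complex off, and the phosphatases remove the phosphate and switch it on again. Pdk4 is best known as the isoform that muscle, heart and liver raise in fasting and high fat supply, under peroxisome proliferator-activated receptors (PPARs), FOXO factors and glucocorticoids, and Pdk1 as a target of hypoxia-inducible factor (HIF).

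Total counts assigned to genes ran from 21234789 to 92752515 per library, with palmitate replicate 10 the deepest and a median of 27943965. Levels are given as CPM, the counts of a gene as a rate of a library's total, on library sizes scaled by the trimmed mean of M values (TMM). Changes were tested with the quasi-likelihood method of edgeR, adjusted after Benjamini and Hochberg over all 16306 genes, and a gene was called at an adjusted p under 0.05. The 10 fibroblast markers, collagens and Pdgfra among them, summed to 44402 to 46094 CPM in BSA and IL-1β libraries and to 38724 to 42528 CPM in those with palmitate. Summed markers of epithelial cells, leukocytes, endothelial cells and adipocytes reached at most 0.855, 4.35, 2.25 and 0.156 CPM, with Krt6a at 0 throughout, and 3 mural cell markers summed to 36.6 to 47.5 CPM. The part of the lower fibroblast sum in the results below was not tested. In bulk RNA, fewer cells of a type and less RNA per cell cannot be told apart.

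Per kb of all annotated exons, Pdha1 stood highest of the 10 genes in BSA (control), at 56.5 ± 1.22 CPM per kb (SD, n = 4). It was followed by Pdk4 at 8.64 ± 0.501 and Pdk3 at 8.40 ± 0.679, which did not differ beyond their spread, then Pdp1 at 5.88 ± 0.269 and Pcx at 3.03 ± 0.182 CPM per kb. Pdp2 at 2.72 ± 0.243 and Pdk1 at 2.25 ± 0.139 came next. Pdk2 at 2.02 ± 0.105 and Mpc2 at 2.01 ± 0.322 followed, which again did not differ beyond their spread, and Mpc1 was lowest at 0.862 ± 0.188. In BSA libraries Pcx also overlapped Pdp2, and Pdk1 overlapped both Pdk2 and Mpc2. This order rests on the lengths, because genes with many annotated transcripts have long exon unions. Per kb of the canonical transcript, a length chosen after seeing the data, Pdk3 at 28.1 ± 2.27 and Mpc2 at 11.7 ± 1.87 came before Pdk4 at 8.73 ± 0.506 CPM per kb, while Pdha1 stayed first. Mpc1 at 2.67 ± 0.583 and Pdp2 at 2.76 ± 0.246 were then lowest and did not differ beyond their spread.

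**Figure D1:**
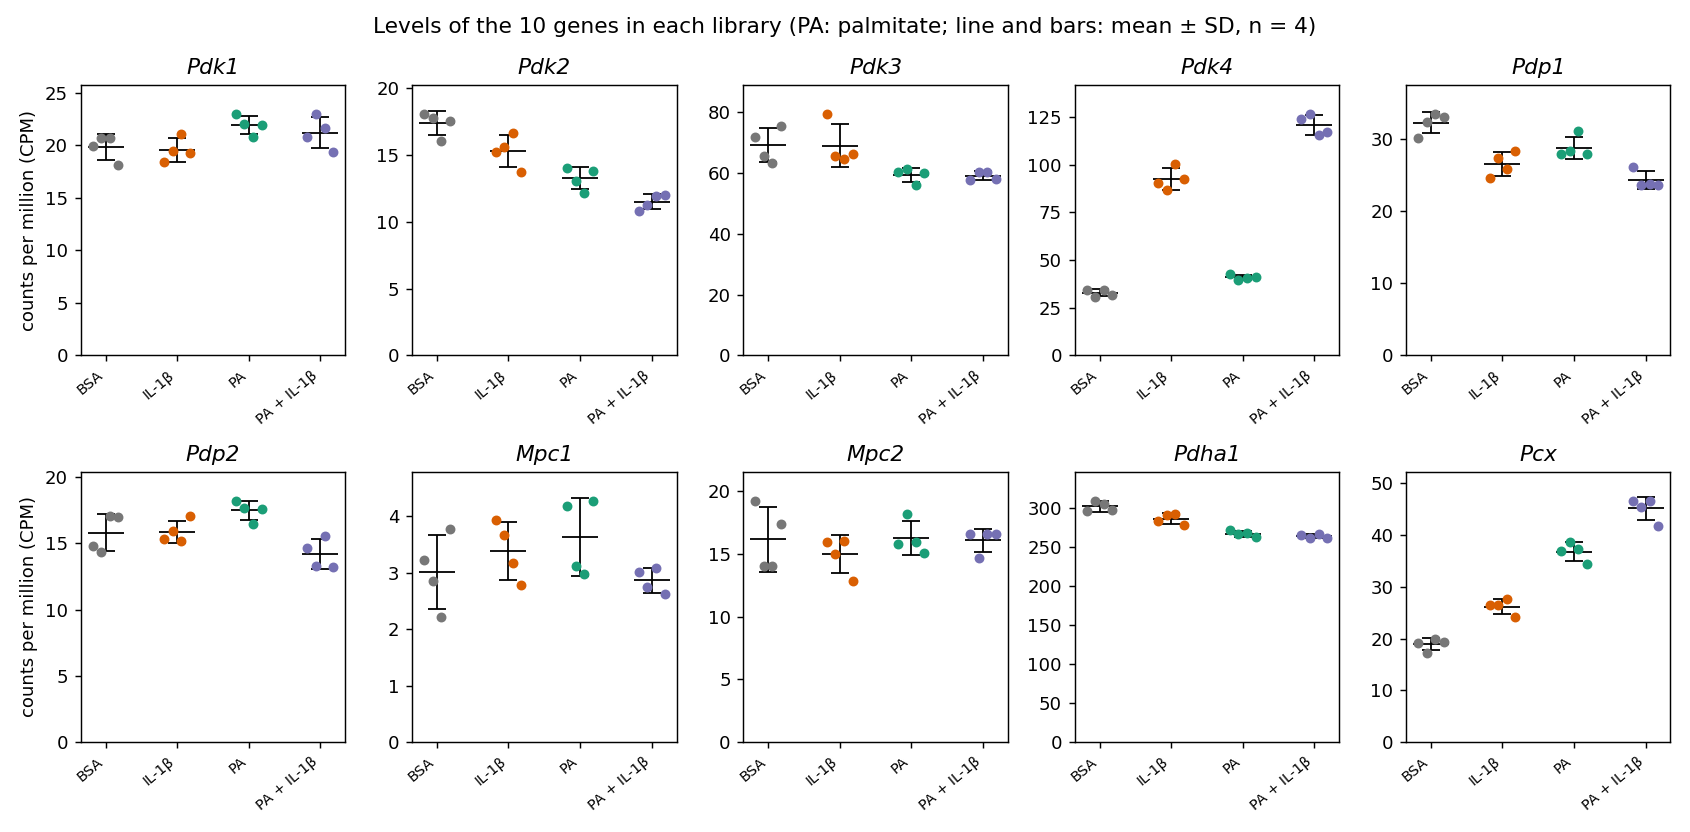
Level in CPM (y axis, from 0) of each gene in the 16 libraries, by condition (PA: palmitate). Points are libraries, and the line and bars are the mean ± SD of 4. Pdk4 rose from a mean of 32.8 CPM in BSA to 121 CPM with palmitate + IL-1β and Pcx from 18.9 to 45.1 CPM, while Pdk2 fell from 17.4 to 11.5 CPM.

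Among the kinases, Pdk4 was the gene that moved most, and its strongest response was to IL-1β. Pdk4 (ENSMUSG00000019577.7) lies on the minus strand of chromosome 6 at 5483097 to 5496339 (GRCm39). The 4 BSA libraries held 34.5, 30.6, 34.3 and 31.8 CPM, and the palmitate libraries 42.4, 39.6, 40.5 and 40.9 CPM. With IL-1β they held 90.4, 86.5, 100.3 and 92.7 CPM, and with palmitate + IL-1β 124, 127, 115 and 117 CPM. No 2 conditions overlapped, and the order BSA, palmitate, IL-1β and palmitate + IL-1β held for every library. Against BSA, the log2 fold change was 1.50 ± 0.05 (SE) with IL-1β, a 2.82-fold rise (edgeR, adjusted p = 2.25e-20). It was 0.31 ± 0.05 with palmitate (edgeR, adjusted p = 1.23e-05) and 1.88 ± 0.05 with palmitate + IL-1β, a 3.68-fold rise (edgeR, adjusted p = 5.48e-24). Palmitate added to IL-1β raised Pdk4 by 1.30-fold (edgeR, adjusted p = 1.14e-07) and IL-1β added to palmitate by 2.96-fold (edgeR, adjusted p = 1.40e-20). By p-value Pdk4 ranked 9 of all genes for IL-1β against BSA and 2 for palmitate + IL-1β against palmitate, but 1936 for palmitate against BSA.

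Since Pdk4 carried the largest change of the 10 genes, the sequence before its start is shown, for the letters of the motifs listed below. They include motifs of factors not named above for Pdk4, HIF among them, and no glucocorticoid element was searched. The stretch is bases 250 to 10 upstream of the canonical start, on GRCm39 chr6:5496340-5496580, minus strand, outside any annotated exon, with the single motif match in capitals.
Pdk4 upstream: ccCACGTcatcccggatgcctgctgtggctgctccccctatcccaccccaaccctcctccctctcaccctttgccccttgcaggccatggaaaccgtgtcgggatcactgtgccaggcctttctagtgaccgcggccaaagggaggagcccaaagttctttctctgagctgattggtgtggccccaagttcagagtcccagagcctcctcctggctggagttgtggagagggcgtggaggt
The capitals mark CACGT at bases 248 to 244, the reverse complement of the HIF core ACGTG, whose letters occur on either strand in 17.0% of the 21770 upstream windows of 250 bases searched, 1 per protein-coding gene. On both strands of this window there was no match to the nuclear receptor site AGGTCA (13.1% of all windows) or the FOXO site GTAAACA (2.72%). Nor was there a match to the NF-kB consensus (7.62%) or the ATF4 element TGATGNAA (3.39%). The HIF core letters were also matched 3 times before Pcx and 2 times each before Pdk2 and Pdp2, AGGTCA before Mpc1 and Pdp1, and the NF-kB consensus before Pdha1. Matches on the 2 strands may overlap, since 1 CACGTG counts as 2 HIF core matches. A match is letters in a window, not a bound site, and a miss does not show that a gene lacks such sites. Bases farther from the start were not searched.

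Pdk2, a kinase isoform found in most tissues, moved the other way. It lies on chromosome 11 at 94914929 to 94932242, minus strand (ENSMUSG00000038967.14). BSA libraries held 18.1, 17.8, 16.1 and 17.5 CPM and IL-1β libraries 15.2, 15.6, 16.7 and 13.8 CPM. Palmitate libraries held 14.0, 13.0, 12.2 and 13.8 CPM, and palmitate + IL-1β libraries 10.8, 11.3, 11.9 and 12.0 CPM. All 8 libraries with palmitate lay below all BSA libraries, whereas those with IL-1β alone overlapped BSA and palmitate alone. With palmitate Pdk2 fell to 0.760 of its BSA level (log2 fold change -0.40 ± 0.07, edgeR, adjusted p = 2.31e-05) and with palmitate + IL-1β to 0.661 (-0.60 ± 0.07, edgeR, adjusted p = 1.76e-08). The value with IL-1β alone was -0.18 ± 0.07 and was not called (edgeR, adjusted p = 0.0785), although it passed without BSA replicate 3 (edgeR, adjusted p = 0.0432) or IL-1β replicate 7 (edgeR, adjusted p = 0.0427). It passed also under upper-quartile scaling (edgeR, adjusted p = 0.0215) and with at least 10 counts in every library (edgeR, adjusted p = 0.0475).

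Pdk3, an X-linked isoform at 92789513 to 92876389 on the minus strand (ENSMUSG00000035232.9), was lower wherever palmitate was given. BSA libraries held 71.8, 65.7, 63.4 and 75.6 CPM, and palmitate libraries 60.3, 61.4, 56.2 and 60.0 CPM. IL-1β libraries held 79.5, 65.6, 64.7 and 66.4 CPM, and palmitate + IL-1β libraries 57.8, 60.4, 60.5 and 58.1 CPM. Each library with palmitate lay below each without it. The fall was 13.9% with palmitate (-0.22 ± 0.06, edgeR, adjusted p = 0.00385) and 14.4% with both agents (-0.22 ± 0.06, edgeR, adjusted p = 0.00200). IL-1β alone gave a log2 fold change of -0.0032 with a 95% interval of -0.12 to 0.12.

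Pdk1 (ENSMUSG00000006494.12, chromosome 2 at 71703488 to 71734202, plus strand) varied least of the kinases relative to its level. Its libraries held 18.1 to 20.7 CPM in BSA, 18.4 to 21.1 with IL-1β, 20.8 to 23.0 with palmitate and 19.4 to 22.9 with both. The palmitate libraries all lay above the BSA libraries, but the log2 fold change of 0.14 ± 0.06 was not called (edgeR, adjusted p = 0.0706). Pdk1 was called in palmitate against IL-1β alone, at 0.16 ± 0.06 (edgeR, adjusted p = 0.0481), and that call was lost under 5 of 7 other settings and on leaving out any of 10 of the 16 libraries. Those were BSA replicates 1 and 2, IL-1β replicates 5, 6 and 8, palmitate replicates 9, 10 and 12, and palmitate + IL-1β replicates 13 and 15, with edgeR adjusted p from 0.0507 to 0.136.

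The make-up of the summed kinase level differed between all 4 conditions, as a description with no test. The sum of the 4 kinases was 21.3 ± 0.758 CPM per kb of exons in BSA, 22.0 ± 0.610 with palmitate, 36.8 ± 1.62 with IL-1β and 42.7 ± 1.49 with both. The first pair overlapped, and their order turned with the length, at 48.1 ± 2.32 in BSA and 45.0 ± 1.47 with palmitate per kb of the canonical transcript. Pdk4 made up 40.6 ± 1.96% of that sum in BSA, 48.9 ± 1.05% with palmitate, 66.3 ± 2.04% with IL-1β and 74.4 ± 0.984% with both, and the libraries of no 2 conditions overlapped. The Pdk3 share ran the other way, from 39.4 ± 2.32% in BSA to 16.8 ± 0.647% with both, and the Pdk2 share from 9.48 ± 0.493% to 3.14 ± 0.248%. The choice of length set the size of these shares but not the order of the conditions in the Pdk4 share. Per kb of the canonical transcript the Pdk4 share was 18.2 ± 1.33%, 24.2 ± 0.796%, 39.1 ± 2.35% and 49.2 ± 1.34% in the same order, and Pdk3 then led in BSA with 58.3 ± 2.08%, with palmitate at 53.8 ± 0.911% and with IL-1β at 44.5 ± 3.16%. With both agents together Pdk4 led, Pdk3 making up 36.9 ± 0.891%.

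**Figure D2:**
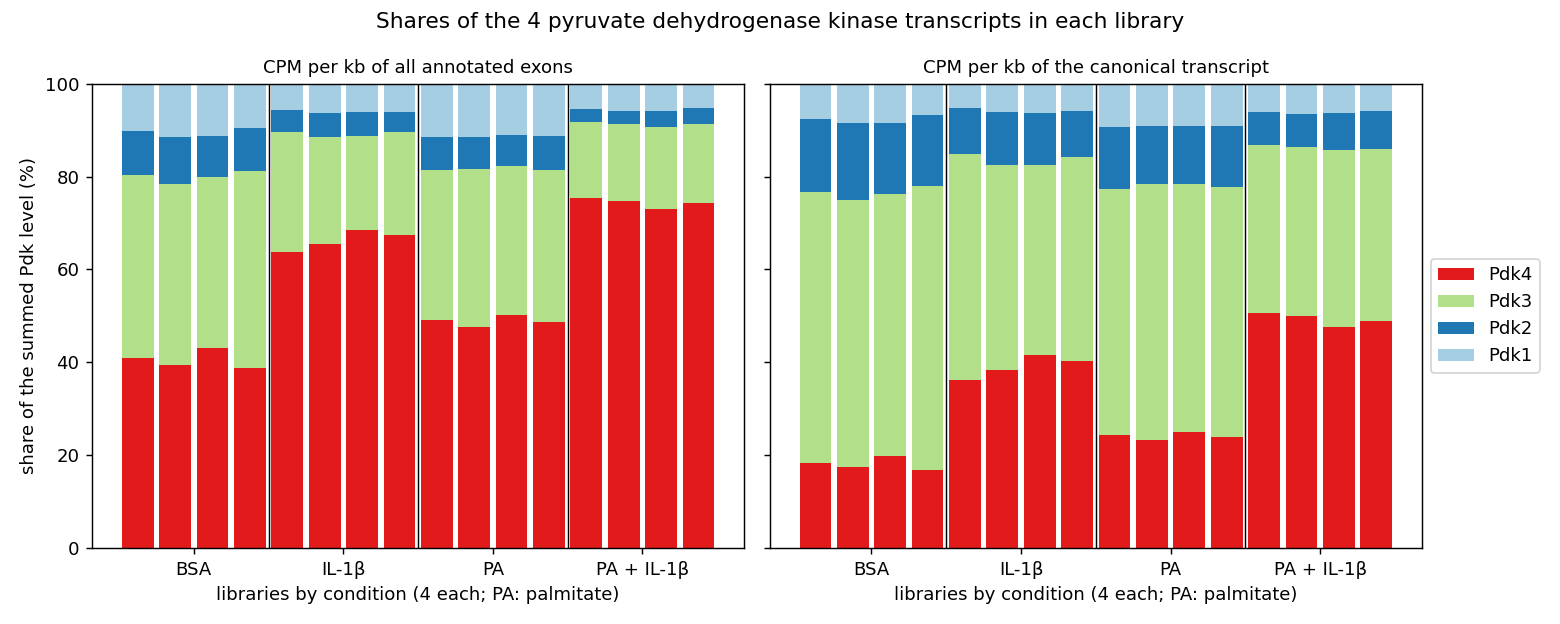
Share of each kinase transcript in the summed level of the 4 kinases (y axis, percent) in each of 16 libraries by condition (PA: palmitate), with CPM per kb of all annotated exons on the left and per kb of the canonical transcript on the right. The red Pdk4 share grew from BSA to palmitate, IL-1β and both on either scale, with means of 40.6 to 74.4% on the left and 18.2 to 49.2% on the right.

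The phosphatases, which act against the kinases, were lower in each comparison that called them. Pdp1 (ENSMUSG00000049225.15, chromosome 4 at 11957712 to 11966468, minus strand) held 30.1, 32.4, 33.5 and 33.0 CPM in BSA libraries and 24.5, 27.3, 25.9 and 28.3 CPM with IL-1β. Palmitate libraries held 27.9, 28.3, 31.1 and 27.9 CPM, and libraries with both agents 26.1, 23.6, 23.8 and 23.6 CPM. Libraries given IL-1β, with or without palmitate, lay below every BSA library, and those given palmitate alone overlapped BSA. Pdp1 fell by 17.8% with IL-1β (-0.28 ± 0.06, edgeR, adjusted p = 0.000591) and by 24.5% with both (-0.41 ± 0.06, edgeR, adjusted p = 4.83e-07). The fall of 10.7% with palmitate (-0.16 ± 0.06, edgeR, adjusted p = 0.0223) was lost on leaving out BSA replicate 3 or 4 or palmitate replicate 9, 10 or 12, with edgeR adjusted p from 0.0584 to 0.0720.

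Pdp2 (ENSMUSG00000048371.9, chromosome 8 at 105318052 to 105325671, plus strand) was not called against BSA in any condition with the scaling and filter used, though its value with both depended on those choices. Its libraries held 14.4 to 17.1 CPM in BSA, 15.2 to 17.0 with IL-1β, 16.5 to 18.2 with palmitate and 13.2 to 15.6 with both. Palmitate alone and palmitate + IL-1β lay apart with no overlap, a difference of -0.30 ± 0.07 (edgeR, adjusted p = 0.00441). Against BSA the value with both was -0.15 ± 0.07 (edgeR, adjusted p = 0.0807), and it passed under upper-quartile scaling at -0.23 (edgeR, adjusted p = 0.00741), with at least 10 counts in every library (edgeR, adjusted p = 0.0375), and without BSA replicate 1 or 2 or palmitate + IL-1β replicate 15 (edgeR, adjusted p from 0.0253 to 0.0392). The value with palmitate was 0.15 ± 0.07 (edgeR, adjusted p = 0.0999) and passed without BSA replicate 3 (edgeR, adjusted p = 0.0496).

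The summed kinase level over the summed phosphatase level, per kb of exons, was 2.49 ± 0.189 in BSA, 2.67 ± 0.116 with palmitate, 4.88 ± 0.443 with IL-1β and 6.23 ± 0.396 with both. BSA and palmitate overlapped, at 2.32 to 2.76 and 2.50 to 2.76, while the IL-1β libraries at 4.49 to 5.27 and those with both at 5.93 to 6.77 stood apart. Per kb of the canonical transcript the ratios were 5.00 ± 0.419, 4.89 ± 0.259, 7.51 ± 0.752 and 8.51 ± 0.506, so the order of BSA and palmitate turned, and IL-1β overlapped palmitate + IL-1β. These are ratios of transcript levels and carry no test.

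Transcripts of the carrier were called in no comparison by edgeR or DESeq2, and at an unadjusted p under 0.05 the only one was the interaction of Mpc1 given below. Mpc2 (ENSMUSG00000026568.7, chromosome 1 at 165287125 to 165308785, plus strand) held 14.0 to 19.3 CPM in BSA, 12.9 to 16.1 with IL-1β, 15.1 to 18.2 with palmitate and 14.7 to 16.6 with both, so all 4 conditions overlapped. Its 95% intervals against BSA were -0.17 to 0.21 with palmitate, -0.31 to 0.081 with IL-1β and -0.20 to 0.18 with both, on the log2 scale. Mpc1 (ENSMUSG00000023861.18, chromosome 17 at 8501736 to 8516498, plus strand) had the fewest reads, 58 to 282 per library or 2.21 to 4.27 CPM, and its interval with palmitate of -0.086 to 0.54 was wide. Of its canonical transcript of 1128 bases, 23.3% is shared at 95% identity or more with another gene, most of it the pseudogene Mpc1-ps, so reads there could be split or dropped and its level is uncertain. At most 3.62% of any of the other 9 canonical transcripts was shared in that way.

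Pdha1 (ENSMUSG00000031299.11, X chromosome at 158904237 to 158921426, minus strand), which encodes the phosphorylated subunit that the kinases and phosphatases act on, fell slightly but evenly with palmitate. BSA libraries held 295, 309, 305 and 297 CPM and palmitate libraries 271, 266, 267 and 262 CPM. IL-1β libraries held 282, 291, 292 and 278 CPM, and those with both 265, 261, 266 and 261 CPM. BSA, IL-1β and the libraries with palmitate formed separate ranges, and palmitate alone overlapped palmitate + IL-1β. The fall was 11.5% with palmitate (-0.18 ± 0.04, edgeR, adjusted p = 0.000281) and 12.7% with both (-0.20 ± 0.04, edgeR, adjusted p = 5.55e-05). IL-1β alone gave -0.077 ± 0.04, which was not called (edgeR, adjusted p = 0.176), although its libraries lay below those of BSA. DESeq2 called it at -0.076 (adjusted p = 0.0467), as did edgeR with upper-quartile scaling (adjusted p = 0.0161).

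Pcx (ENSMUSG00000024892.18, chromosome 19 at 4559902 to 4672189, plus strand), whose product sends pyruvate to oxaloacetate in place of acetyl-CoA, rose in every treated condition and most where palmitate was present. BSA libraries held 19.1, 17.3, 19.8 and 19.4 CPM and IL-1β libraries 26.4, 26.4, 27.7 and 24.2 CPM. Palmitate libraries held 36.9, 38.6, 37.3 and 34.3 CPM, and those with both 46.6, 45.5, 46.6 and 41.8 CPM. The 4 ranges did not overlap. The log2 fold change was 0.97 ± 0.06 with palmitate, a 1.95-fold rise (edgeR, adjusted p = 5.59e-15), 0.47 ± 0.06 with IL-1β (edgeR, adjusted p = 5.33e-07), and 1.26 ± 0.06 with both, a 2.39-fold rise (edgeR, adjusted p = 3.89e-18). For every Pdha1 count there were 0.0628 ± 0.0046 Pcx counts in BSA, 0.0915 ± 0.0034 with IL-1β, 0.138 ± 0.0059 with palmitate and 0.171 ± 0.0078 with both, again with no overlap.

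**Figure D3:**
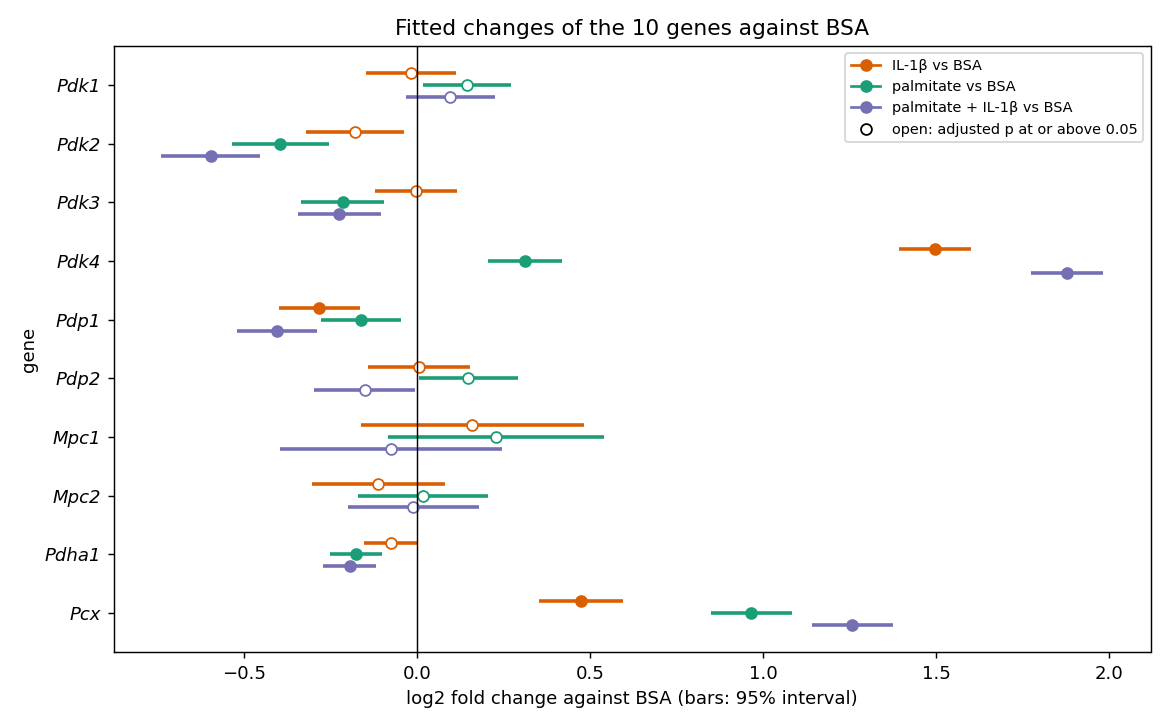
Fitted log2 fold change against BSA (x axis) of the 10 genes (y axis) with IL-1β, palmitate or both. Points are estimates, bars 95% intervals, and open points were not called. Pdk4 stood at 1.50 with IL-1β and 0.31 with palmitate, Pcx at 0.47 and 0.97, and all Mpc1 and Mpc2 points were open.

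Counted over the 10 genes, palmitate against BSA called 2 higher (Pdk4 and Pcx) and 4 lower (Pdk2, Pdk3, Pdp1 and Pdha1), where 37.3% of all tested genes were called, 19.8% higher and 17.5% lower. IL-1β against BSA called Pdk4 and Pcx higher and Pdp1 lower, where 15.1% of all genes were called, 10.1% higher and 4.97% lower. Palmitate + IL-1β against BSA called 6, Pdk4 and Pcx higher and Pdk2, Pdk3, Pdp1 and Pdha1 lower, where 47.3% of all genes were called, 24.8% higher and 22.5% lower. Libraries did not overlap for 6, 4 and 6 of the 10 genes in these comparisons, beside 36.0%, 17.6% and 41.5% of all genes. These 3 comparisons share their BSA libraries. The median log2 fold change of the 10 genes was 0.081 with palmitate, -0.011 with IL-1β and -0.11 with both, beside -0.0030, -0.0049 and 0.0017 over all tested genes.

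Upper-quartile scaling moved the split of calls over all genes from 53.1% higher to 37.1% with palmitate, from 67.1% to 43.5% with IL-1β and from 52.4% to 38.7% with both. It lowered the median of all genes by 0.079 at most, on the log2 scale. No called change of the 10 genes turned its direction under it. With IL-1β it called 5 of the 10 genes, adding Pdk2 at -0.23 (edgeR, adjusted p = 0.0215) and Pdha1 at -0.12 (edgeR, adjusted p = 0.0161) as lower. With both against BSA it called 7, adding Pdp2 as lower, and with both against IL-1β 7 in place of 5, adding Pdp1 at -0.15 and Pdp2 at -0.19 as lower (edgeR, adjusted p = 0.0390 for each).

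Between treated conditions, palmitate + IL-1β against IL-1β called Pdk4 and Pcx higher and Pdk2, Pdk3 and Pdha1 lower, where 35.0% of all genes were called, 18.9% higher and 16.1% lower, and libraries did not overlap for 5 of the 10 genes and 31.3% of all genes. Palmitate + IL-1β against palmitate called Pdk4 and Pcx higher and Pdp1 and Pdp2 lower, where 9.81% of all genes were called, 5.71% higher and 4.10% lower, and libraries did not overlap for 5 of the 10 genes and 16.7% of all genes. Palmitate against IL-1β called Pdk1 and Pcx higher and Pdk2, Pdk3, Pdk4 and Pdha1 lower, where 31.6% of all genes were called, 16.5% higher and 15.2% lower, and libraries did not overlap for 4 of the 10 genes and 31.1% of all genes. In that comparison the difference of Pdk4 was -1.18 ± 0.05 (edgeR, adjusted p = 2.45e-18) and that of Pcx 0.49 ± 0.06 (edgeR, adjusted p = 2.67e-08). Its count of 6 fell to 3 without palmitate replicate 10, the deepest library, when Pdk1, Pdk2 and Pdha1 were lost (edgeR, adjusted p = 0.103, 0.0608 and 0.0878). Pdk2 was lost also without IL-1β replicate 7 or palmitate replicate 11, and Pdha1 without IL-1β replicate 6 or 7 or palmitate replicate 11 or 12 (edgeR, adjusted p from 0.0776 to 0.104).

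Whether palmitate and IL-1β together differed from the sum of their single effects, on the log2 scale, was asked with an interaction term. By this test 0 of the 10 genes were called with edgeR's quasi-likelihood test and 0 with DESeq2, where edgeR called 1.99% of all genes, 0.159% higher and 1.83% lower. At an unadjusted p under 0.05 edgeR gave 3 of the 10, each negative: Pdp2 at -0.30 ± 0.10 (edgeR, adjusted p = 0.158), Pcx at -0.18 ± 0.08 (edgeR, adjusted p = 0.412) and Mpc1 at -0.46 ± 0.22 (edgeR, adjusted p = 0.468). For Pdk4 the interaction was 0.070 with a 95% interval of -0.075 to 0.21.

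The lists that follow are read beside the shares of all tested genes called, 37.3% with palmitate, 15.1% with IL-1β and 47.3% with both. In the rest of the pyruvate dehydrogenase complex, 2 of 5 further subunits or partners were called higher with palmitate. They were Pdhx, the protein that tethers one enzyme of the complex to another, at 0.24 ± 0.07 (edgeR, adjusted p = 0.00909), and Dld, the dihydrolipoamide dehydrogenase shared with other complexes, at 0.18 ± 0.06 (edgeR, adjusted p = 0.00885). Both were lost under upper-quartile scaling (edgeR, adjusted p = 0.0646 and 0.111), and Dld without BSA replicate 3 (edgeR, adjusted p = 0.0610). Of the genes that supply the complex with its cofactors, the thiamine transporter gene Slc19a2 stood at 0.33 ± 0.06 with palmitate (edgeR, adjusted p = 3.94e-05).

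Plasma membrane monocarboxylate transporters, which exchange pyruvate and lactate with the medium, moved apart with palmitate. Slc16a3 rose 1.57-fold (edgeR, adjusted p = 1.66e-05) and Slc16a1 1.41-fold (edgeR, adjusted p = 2.15e-09), while Slc16a7 fell by 24.2% (edgeR, adjusted p = 0.000344). Ldhb, the lactate dehydrogenase subunit of oxidative tissues, fell by 21.1% (edgeR, adjusted p = 8.38e-05). Over the 13 of 14 tested genes of pyruvate and lactate exchange, 3 were called higher and 2 lower with palmitate and 3 higher and 1 lower with IL-1β. Under upper-quartile scaling palmitate called 3 higher and 5 lower.

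In the TCA cycle, 1 of 16 genes was called higher and 4 lower with palmitate, 1 was called lower with IL-1β and 9 were called lower with both, with medians of -0.056, -0.036 and -0.13 on the log2 scale. Of all genes, 37.3% were called with palmitate, 15.1% with IL-1β and 47.3% with both. The count with palmitate fell from 5 to 3 without BSA replicate 2 or palmitate replicate 9 or 10, and that with IL-1β went from 1 to 0 without BSA replicate 1, 2 or 4 or IL-1β replicate 7 or 8. Under other settings the TCA count was 5 to 7 with palmitate, 0 to 2 with IL-1β and 8 to 13 with both. The isocitrate dehydrogenase subunit gene Idh3a was the one called higher, at 0.16 ± 0.05 (edgeR, adjusted p = 0.00979), and it was lost under upper-quartile scaling or without BSA replicate 2 (edgeR, adjusted p = 0.131 and 0.116). The succinate dehydrogenase subunit genes Sdhd and Sdhc fell by 13.5% and 10.4% (edgeR, adjusted p = 0.0161 and 0.0103), Sdhd being lost without BSA replicate 2 (edgeR, adjusted p = 0.0677). Pcx needs biotin, and of 8 other biotin-dependent enzymes and biotin handlers 2 were called lower with palmitate and 2 with IL-1β. The count with palmitate was 5 under upper-quartile scaling and 4 with at least 10 counts in every library or without BSA replicate 3, and that with IL-1β was 1 without BSA replicate 4 or IL-1β replicate 7 or 8. Among them the propionyl-CoA carboxylase gene Pccb fell by 22.0% with palmitate (edgeR, adjusted p = 6.86e-06) and by 12.3% with IL-1β (edgeR, adjusted p = 0.0233), the latter lost without BSA replicate 4 or IL-1β replicate 7 or 8 (edgeR, adjusted p from 0.0781 to 0.108). Mccc1, a methylcrotonyl-CoA carboxylase subunit gene, fell by 11.0% with palmitate (edgeR, adjusted p = 0.00862). The branched-chain ketoacid dehydrogenase, built and regulated much like the pyruvate complex, had Bckdha called lower with IL-1β, at -0.26 ± 0.06 (edgeR, adjusted p = 0.00552), and the count over its 5 genes, 2 as tested, was 1 to 3 under other settings and when 1 library was left out.

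Genes of factors known to act on Pdk4 or Pdk1 were called 5 higher and 2 lower of 13 tested with palmitate, where 37.3% of all genes were called, and 2 higher with IL-1β, where 15.1% of all genes were called. Foxo3, a FOXO factor, went from 155 ± 8.21 CPM in BSA to 308 ± 13.3 with palmitate, 183 ± 6.93 with IL-1β and 316 ± 15.8 with both. Epas1, which encodes a HIF alpha subunit, rose 2.13-fold with palmitate (edgeR, adjusted p = 6.28e-09), Pparg fell by 49.8% (edgeR, adjusted p = 1.11e-12), and Esrra stood at -0.23 ± 0.08 (edgeR, adjusted p = 0.0279). The call of Esrra was lost without BSA replicate 1 or 2 or palmitate replicate 9 or 11 (edgeR, adjusted p from 0.0506 to 0.0785). Ppard, named after its values were seen because it rose under both agents, held 32.9 ± 1.80 CPM in BSA, 46.9 ± 2.32 with IL-1β, 52.8 ± 2.29 with palmitate and 75.8 ± 3.28 with both. Ppara did not pass the filter and was at 0.0322 to 0.517 CPM.

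Genes known as PPAR targets, a class that includes Pdk4, were called 2 higher and 13 lower of 21 tested with palmitate, and 12 higher and 1 lower with IL-1β. With both agents 7 were called higher and 4 lower. Over all genes 17.5% were called lower with palmitate and 10.1% higher with IL-1β, and with both 24.8% higher and 22.5% lower. The medians of the PPAR targets were -0.28 with palmitate, 0.38 with IL-1β and 0.043 with both, on the log2 scale. Angptl4, a lipoprotein lipase inhibitor, went from 4.44 ± 1.35 CPM in BSA to 20.7 ± 2.67 with palmitate, 100.5 ± 3.40 with IL-1β and 154 ± 5.88 with both. Cpt1a, which admits long-chain fatty acids to mitochondria, fell from 112 ± 2.16 to 82.4 ± 3.99 CPM with palmitate and rose to 216 ± 8.15 with IL-1β and 214 ± 7.47 with both. Vnn1 was the other gene called higher with palmitate, at 0.66 ± 0.09 (edgeR, adjusted p = 2.57e-07), and the largest falls among the named were Acaa2 at -0.73 ± 0.06 (edgeR, adjusted p = 4.08e-11) and Fabp3 at -0.70 ± 0.13 (edgeR, adjusted p = 3.54e-05). With IL-1β, Acadm was the gene called lower, at -0.23 ± 0.06 (edgeR, adjusted p = 0.0107), a call lost without BSA replicate 1 or 4 or IL-1β replicate 8 (edgeR, adjusted p from 0.0508 to 0.0612). Pdk4 and Angptl4 were thus called higher with either agent, whereas Cpt1a was called in opposite directions.

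Genes known as HIF targets, a class that includes Pdk1, were called higher in 17 of 19 cases with palmitate, 7 with IL-1β and 15 with both, beside 19.8%, 10.1% and 24.8% of all genes called higher. Their medians were 0.42, 0.046 and 0.54 on the log2 scale. Under other settings 14 to 17 of them were called in either direction with palmitate, 7 with IL-1β and 12 to 15 with both. This list, like the others, was chosen with earlier results of these data known. Egln3, a HIF prolyl hydroxylase gene, rose 3.40-fold with palmitate (edgeR, adjusted p = 2.93e-17) and Hk2, the gene of a hexokinase that starts glycolysis, 2.61-fold (edgeR, adjusted p = 2.64e-20). Adm, which encodes the vasodilator adrenomedullin, rose 1.61-fold with IL-1β (edgeR, adjusted p = 0.000748). Beside these, the fold of Pdk1 with palmitate was 1.11 and was not called. In the union of these lists, of 107 tested genes, palmitate called 32 higher and 24 lower and IL-1β 25 higher and 7 lower.

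**Figure D4:**
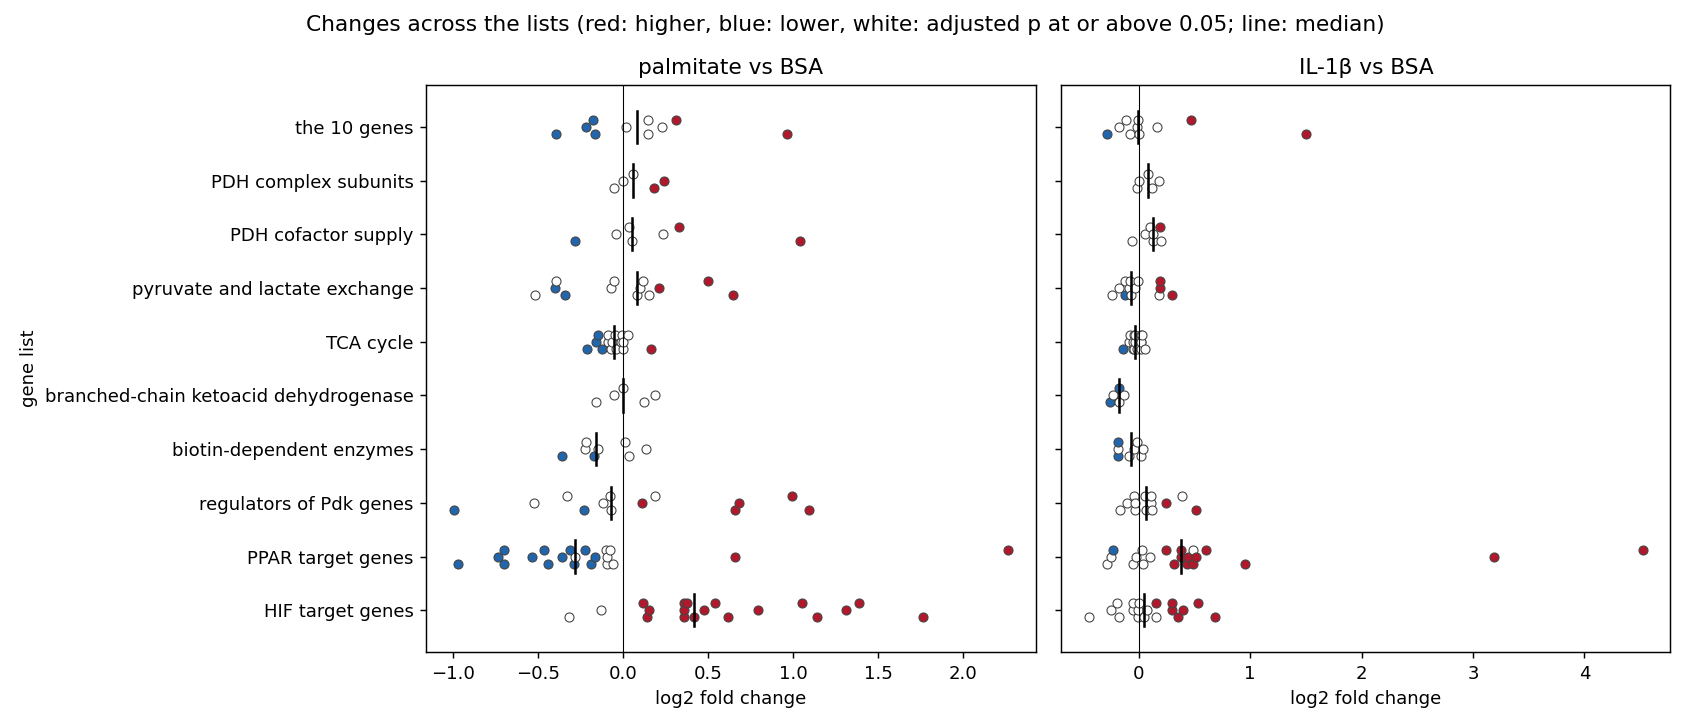
Log2 fold change (x axis) of each tested gene of the 10 genes and of each pathway list (y axis), for palmitate against BSA on the left and IL-1β against BSA on the right. Points are genes, red called higher, blue called lower and white not called, and vertical lines are medians. PPAR targets have a median of -0.28 with palmitate and 0.38 with IL-1β, and HIF targets 0.42 and 0.046.

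Across the 16 libraries, the genes with a log2 CPM pattern most like that of Pdk4, of 11735 searched, were Ifrd1 (Pearson r = 0.985), Ppp1r15a (0.971), Osgin1 (0.971), Zscan29 (0.970) and Cited2 (0.968). Ifrd1 went from 69.2 ± 3.35 CPM in BSA to 81.7 ± 1.74 with palmitate, 119 ± 6.23 with IL-1β and 139 ± 7.09 with both, the same order of conditions as Pdk4. The genes most like Pdk2 were Ndrg3 (0.960), Tead2 (0.958), Tes (0.957), Myo1e (0.957) and Arap1 (0.956). Among the 10 genes themselves, Pdk2 and Pdha1 had the highest r (0.906), Pcx the lowest with Pdha1 (-0.931) and Pdk2 (-0.928), and Pdk4 ran opposite to Pdp1 (-0.879). These are descriptions over libraries that share 4 conditions, and they carry no p.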

How the data were processed

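RNA of mGF was sequenced in 16 libraries. Per the labels a stranded total RNA kit was used, whereas the study's methods name an oligo(dT) kit, which was not settled here. According to the submitters' processing notes and methods, the authors trimmed reads with Trimmomatic 0.39, aligned them with STAR 2.7.10a to GRCm39 and counted them per GENCODE vM33 gene with HTSeq 2.0.9. That counting used strand is known from the name of the table alone. The deposited values are raw read counts per gene and library. Of each library, a median of 19.0% stood in 5 summary rows that name no gene and were left out.

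Libraries were grouped by their treatment labels. Counts were filtered with filterByExpr (minimum count 10, total 15), scaled by TMM (factors 0.970 to 1.04) and fitted with edgeR 4.0.16 (glmQLFit, robust, R 4.3.3) with a mean per condition over all 16 libraries. The common biological coefficient of variation was 6.08%. DESeq2 1.42.0 served as an alternative. Both were run for palmitate against BSA on data simulated with known changes and the same spread for every gene. That run covers no other comparison and not the differing spread of real genes. Levels between genes were divided by exon length from GENCODE vM39 on GRCm39, in which 56323 of 56941 gene IDs were found. CPM and counts cover counting error and library spread only. Sequence was read from GRCm39.

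The 10 genes and the lists were chosen with earlier results of these data known. The genes named from a list were up to 2 with the largest rise and 2 with the largest fall among those called with palmitate at a mean log2 CPM of 1 or more, with up to 3 each way over all lists for IL-1β and for the interaction. A gene that this rule names is not reported here. Genes like Pdk4 and Pdk2, the largest rise and fall, were the 5 with the highest Pearson r. Alternatives were other scalings, filters and tools, a fit of the compared conditions only, other gene lengths and leaving out each library.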

Additional observations from a re-analysis of the deposited data

Results flagged for a closer look

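In 4 of 40 groups of 4 libraries, 1 library stood apart from the other 3 by Dixon's criterion, which chance meets in about 1 of 20 groups. They were Pdk3 with IL-1β, where replicate 5 held 79.5 CPM, Pdp1 with palmitate, where replicate 11 held 31.1 CPM, Pdp1 with palmitate + IL-1β, where replicate 13 held 26.1 CPM, and Mpc2 with palmitate + IL-1β, where replicate 14 held 14.7 CPM.

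By edgeR's quasi-likelihood interaction term, the response to both agents differed from the sum of single log2 responses in 5 of 107 tested pathway genes. Of these, 2 stood above the sum and 3 below, where 1.99% of all genes were called, 0.159% higher and 1.83% lower. Cpt1a stood above the sum by 0.42 ± 0.06 (adjusted p = 1.59e-05) and Plin2, a lipid droplet coat gene, by 0.30 ± 0.07 (adjusted p = 0.00776). Angptl4 stood at -1.65 ± 0.17 against the sum (adjusted p = 3.87e-05), Egln3 at -0.68 ± 0.12 (adjusted p = 0.000568) and Hk2 at -0.33 ± 0.07 (adjusted p = 0.00659).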

How the results depend on the processing

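No paired analysis was possible because the labels give no pairing, the library numbers running from 1 to 16 with none shared between conditions. Whether a culture or animal was split over the conditions is not known, and all tests treated the libraries as unpaired. Of the called changes of the 10 genes, none turned its direction under any alternative run, 204 values stayed called and 6 did not under other settings, and 457 stayed called and 23 did not when 1 library was left out. With upper-quartile scaling IL-1β against BSA called 5 of the 10 genes in place of 3. Palmitate against IL-1β called 3 to 6 on leaving out 1 library. The Pdk4 share of the kinases in BSA, IL-1β, palmitate and both was 29.4, 54.6, 36.9 and 64.1% with the longest transcript as length, and 18.2, 39.1, 24.2 and 49.2% with the canonical transcript, tried after seeing the data.

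Values near 0 that were not called changed sign. With upper-quartile scaling the interaction became 0.0081 for Pdk1, 0.016 for Pdk2 and 0.031 for Pdk3, Pdp2 with IL-1β became -0.042 and Mpc2 with palmitate -0.052. With at least 10 counts in every library the Pdk3 interaction became 0.00084, Pdp2 with IL-1β -0.0089 and Mpc2 with palmitate -0.0013, and with no filter Pdp2 with IL-1β became -0.0082. When 1 library was left out, the ranges that crossed 0 were -0.060 to 0.0097 for Pdk1, -0.077 to 0.042 for Pdk3 and -0.044 to 0.043 for Pdp2 with IL-1β, and -0.057 to 0.10 for Mpc2 with palmitate. With both against BSA they were -0.19 to 0.045 for Mpc1 and -0.090 to 0.071 for Mpc2, with both against palmitate -0.035 to 0.0093 for Pdk3 and -0.063 to 0.047 for Mpc2, and with palmitate against IL-1β -0.018 to 0.16 for Mpc1. For the interaction they were -0.070 to 0.013 for Pdk1, -0.068 to 0.021 for Pdk2, -0.051 to 0.068 for Pdk3, -0.00097 to 0.077 for Pdp1 and -0.012 to 0.16 for Mpc2. The cause was not tested.

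Depth limits Mpc1 most, with 58 to 282 reads per library, while the other genes had at least 289. Levels between genes rest on the lengths chosen, since the table does not say which transcripts were read. The 4 libraries of a condition may share a culture, and the 10 genes and the lists were not chosen blind to these data. Transcript levels say nothing of the phosphorylation or activity of the enzymes.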
